A study of Arabidopsis thaliana with 8 samples.

Results

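The loci described here are the chloroplast-encoded genes of Arabidopsis thaliana, taken as the rows of the count table whose ID starts with ATCG and whose counts sum to at least 40 over the 8 libraries. The rule gave 106 loci, out of 133 with such an ID and 33602 loci in all, and it used no difference between conditions. The samples were pools of whole seedlings of 2 hybrids. The pif4 hybrid is C24xpif4-101 and the Col hybrid is C24xCol, both made with the C24 accession. PIF4 is a transcription factor of the bHLH family that promotes elongation growth in warmth and shade, and pif4-101 is a mutant form of its gene carried by the Col-type parent, so a first-generation hybrid keeps the PIF4 copy of C24. Each hybrid was kept at 27 °C or at 22 °C after germination at 22 °C and collected on day 7 or day 4 after sowing, at ZT0 under 8 h of light and 16 h of dark. Each of the 8 conditions had 1 library, so conditions have no replicates, and each factor was compared over 4 matched pairs of libraries, which differ in that factor alone.

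The plastid genome codes for core parts of the photosystems, the ATP synthase, Rubisco and the plastid's own ribosome, with the plastid ribosomal and transfer RNAs. It is read by a bacterial-type RNA polymerase, whose core is encoded in the plastid and whose sigma factors are encoded in the nucleus, and by phage-type polymerases of nuclear origin. Plastid transcripts are processed, edited and held stable largely by nuclear-encoded proteins, so levels of plastid RNA depend on both genomes.

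The IDs name only some of these genes here. The TAIR10.1 reference annotation lists 129 chloroplast genes under other locus tags, so 0 of the 133 IDs could be paired with a gene by tag, and gene lengths could not be paired either. For 6 members, annotation text of nuclear genes gives a product for the ID. ATCG00670 is ClpP, the plastid-encoded catalytic subunit of the stromal Clp protease. ATCG00660, ATCG01310 and ATCG00750 are ribosomal proteins L20, L2 and S11 of the plastid ribosome. ATCG00530 is related to CemA, a protein of the chloroplast envelope that is linked to proton movement. ATCG00430 is given as photosystem II reaction center protein G, an older name for a product now placed in the NADH dehydrogenase-like complex. The other members are given by ID, without a role. The reference lists 7 ribosomal RNA genes among its 129 chloroplast genes, but not which IDs they have. Whether the loci of largest count are among them could not be read from it, so the shares may not be messenger RNA alone. Counts are not per length, so differences in count between loci do not order their transcript levels.

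Library totals ranged from 1664128 counts for the Col hybrid at 22 °C on day 4 to 25440561 counts for the Col hybrid at 27 °C on day 7, a 15.29-fold range. PIF4 read 157, 62.5, 186 and 79.5 CPM, counts scaled to library size with TMM factors, in the pif4 hybrid (27 °C day 7, 22 °C day 7, 27 °C day 4, 22 °C day 4), against 187, 72.8, 176 and 97.3 CPM in the Col hybrid in the same order. The hybrids overlapped in this level, and since counts do not separate the C24 copy from pif4-101, it does not check the genotype labels. Defining genes of green tissue were read in every library, with RBCS1A between 1594 and 10820 CPM, CAB1 between 2988 and 15980 CPM and LHCA1 between 1506 and 5739 CPM. Root markers were read too, with IRT1 at 4.02 to 169 CPM, CASP1 at 15.9 to 47.9 CPM and MYB36 at 5.22 to 7.57 CPM.

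The 106 loci together held about 1% of all counts. Their share was 1.10%, 0.915%, 0.659% and 0.995% in the pif4 hybrid (27 °C day 7, 22 °C day 7, 27 °C day 4, 22 °C day 4) and 0.717%, 0.939%, 1.06% and 1.20% in the Col hybrid in the same order. The 95% Wilson half-width of these shares was at most 0.01657 percentage points, which covers counting error only. The shallowest library, the Col hybrid at 22 °C on day 4, had the highest share, and the deepest, the Col hybrid at 27 °C on day 7 and the pif4 hybrid at 27 °C on day 4, had the lowest. RBCS1A, CAB1 and LHCA1 were also highest in the shallowest library and lowest in the deepest, and their part in the chloroplast share was not tested. In seedling pools, fewer green cells and less chloroplast RNA per cell cannot be told apart.

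**Figure D1:**
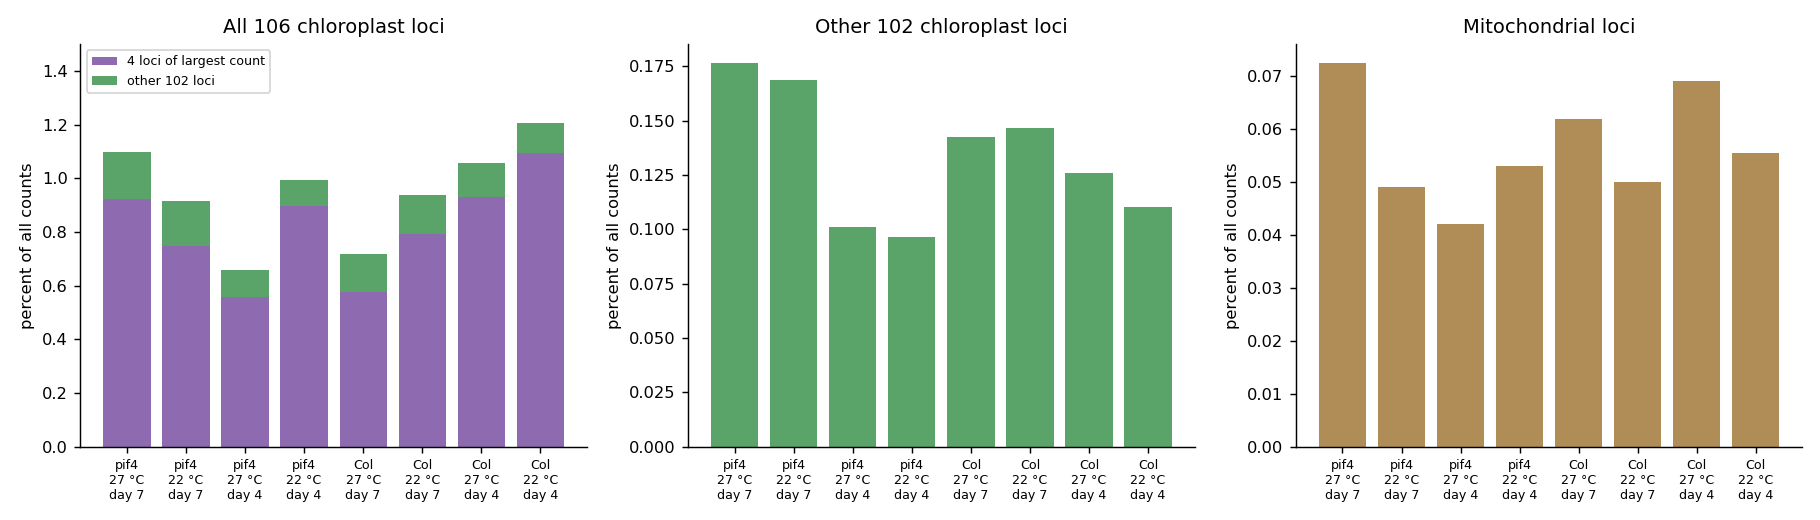
Percent of all counts (linear axes from 0) in each of the 8 libraries for all 106 chloroplast loci, split into the 4 loci of largest count and the other 102 (left), for the other 102 alone (middle) and for the mitochondrial loci (right); each bar is 1 library, without error bars. The other 102 loci held more of the counts in all 4 day 7 libraries than in any day 4 library, whereas the share of all 106 overlapped between the days.

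The count was concentrated in few loci. ATCG01180, ATCG01210, ATCG00950 and ATCG00920 had the largest summed counts, at 235787, 190286, 188757 and 159503. Together these 4 held 83.9%, 81.5%, 84.7% and 90.3% of the chloroplast counts in the pif4 hybrid and 80.1%, 84.4%, 88.1% and 90.8% in the Col hybrid, in the order above. ATCG00020 and ATCG00490 followed with 39898 and 29932 counts, and no other member passed 10000. Next came ATCG00340 at 43.7 to 79.4 CPM, ATCG00350 at 39.9 to 75.8 CPM, ATCG00280 at 26.3 to 44.4 CPM and ATCG00680 at 26.5 to 41.7 CPM. Of the 106 members, 23 summed to between 1000 and 10000 counts and 77 to fewer than 1000, and the median member summed to 409.5 counts. At the lower edge, ATCG01160 with 41, ATCG01120 with 48 and ATCG01300 with 77 counts lay just inside the minimum, and ATCG00050 with 39, ATCG00200 with 38 and ATCG00970 with 37 lay just outside it. In the shallowest library 8 members had no count, which at that depth allows a level of up to 2.15 CPM, and in the Col hybrid at 27 °C on day 4 it was 1 member. In the other 6 libraries every member was counted.

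Among the 4 largest loci, 2 pairs kept a near-constant ratio. ATCG01180 had 1.22 to 1.32 times the counts of ATCG00950, and ATCG01210 had 1.18 to 1.23 times the counts of ATCG00920, in all 8 libraries. Whether reads are shared between the loci of a pair is not given in the sources used here. The balance between the pairs differed with age. The ratio of ATCG01210 plus ATCG00920 to ATCG01180 plus ATCG00950 was 1.02 and 1.03 in the pif4 hybrid at 27 °C and 22 °C on day 7 and 0.874 and 1.04 in the Col hybrid on day 7, against 0.623 and 0.619 in the pif4 hybrid and 0.630 and 0.593 in the Col hybrid on day 4. The ratio was thus higher on day 7 in 4 of 4 matched pairs, by a mean of 0.68 on the log2 scale (SD 0.15), and the days did not overlap. Between temperatures it differed by a mean of −0.04 (SD 0.15), higher at 27 °C in 2 of 4 pairs.

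**Figure D2:**
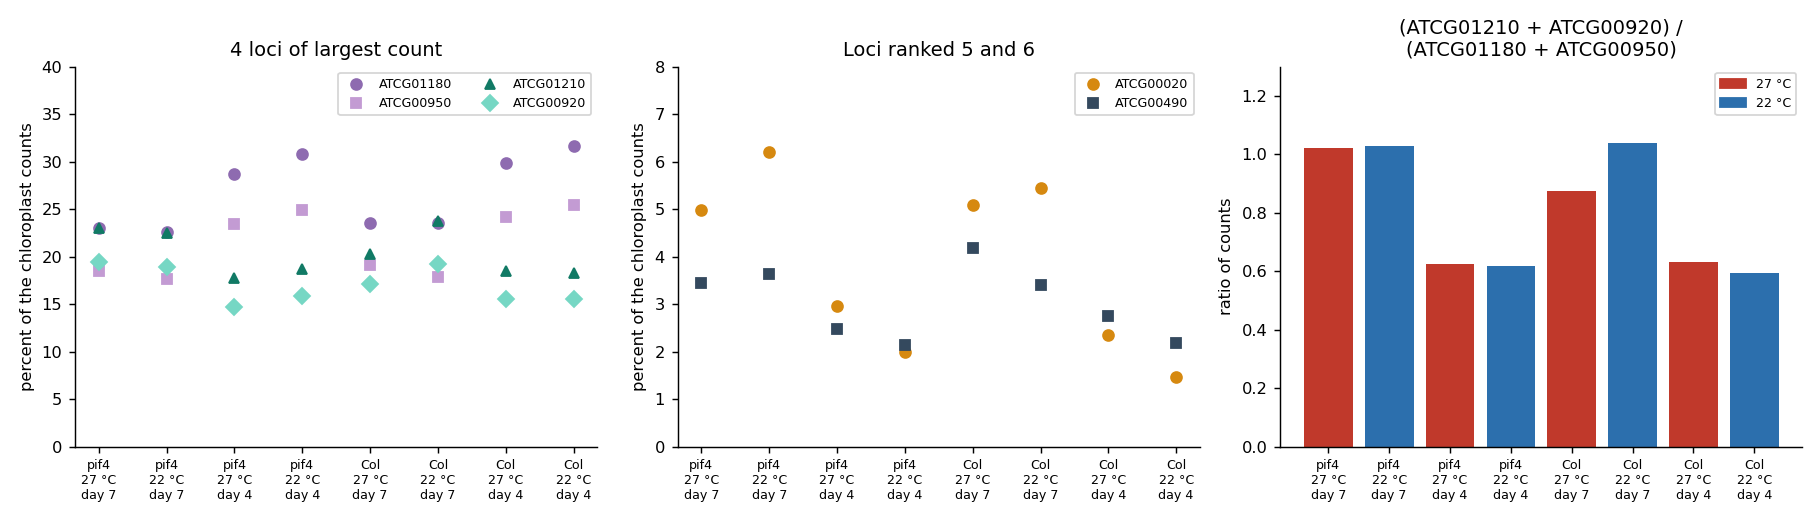
Percent of the chloroplast counts held by the 4 loci of largest count (left) and by the loci ranked 5 and 6 (middle), and the ratio of the counts of ATCG01210 plus ATCG00920 to those of ATCG01180 plus ATCG00950 (right), in each of the 8 libraries. Each point or bar is 1 library; the ratio lies between 0.874 and 1.04 on day 7 and between 0.593 and 0.630 on day 4.

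Between day 7 and day 4, the chloroplast total stayed within the spread of the pairs while its make-up differed. The share of all 106 loci in the counts had a mean log2 ratio of −0.08 between day 7 and day 4 (SD 0.57 over 4 pairs), lower on day 7 in 3 of 4 pairs. In each of the 4 pairs the lower share was that of the deeper library, and the part of depth was not tested. The other 102 loci, without the 4 largest, held 0.176%, 0.169%, 0.143% and 0.147% of all counts on day 7 (pif4 27 °C, pif4 22 °C, Col 27 °C, Col 22 °C), against 0.101%, 0.0965%, 0.126% and 0.1102% on day 4 in the same order. They were higher on day 7 in 4 of 4 pairs, by a mean of 0.55 on the log2 scale (SD 0.31), and the days did not overlap. Without the loci ranked 5 and 6 too, the remaining 100 loci differed by a mean of 0.22 (SD 0.26), higher on day 7 in 3 of 4 pairs. The 4 largest loci held less of the chloroplast total on day 7 in 4 of 4 pairs, with a mean log2 ratio of −0.10 (SD 0.06). Without the loci ranked 5 and 6 in that total the mean was −0.03.

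Locus by locus, 101 of the 106 members passed the filter on low counts and were tested with edgeR's quasi-likelihood test, with Benjamini-Hochberg adjustment over all 19829 loci tested and a threshold of 0.05. With age, 20 members rose, beside 24.8% of all loci tested that rose, and 0 fell, beside 24% of all loci that fell. The 20 are 19.8% of the members tested, against 48.8% of all loci called in either direction. At an unadjusted p under 0.05, 24 members passed, 23.8% of those tested, beside 55.4% of all loci. The median change was 0.15 for the members, with a range of −0.57 to 1.62 and 73 of 101 above 0, beside a median of 0.00 for all loci. The number that rose was smaller when single pif4 libraries were left out. It was 7 without the pif4 hybrid at 22 °C on day 4 and 8 without the pif4 hybrid at 27 °C on day 4. It was 10 without the pif4 hybrid at 22 °C on day 7 and 9 without the pif4 hybrid at 27 °C on day 7. Leaving out a library also lowers the residual degrees of freedom for every locus. The share of all loci called in these fits is not given here, so the drop cannot be read as particular to the members. With the 4 largest loci taken out and the rest of the chloroplast total used as the size of each library, 3 members rose and 10 fell with age, beside 3.11% of all loci that rose and 40.8% that fell. That scaling moved the median of all loci with age to −0.48 and that of the members to −0.36.

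Of the 4 largest loci, ATCG01180 read 2486, 2046, 1518 and 2260 CPM on day 7 (pif4 27 °C, pif4 22 °C, Col 27 °C, Col 22 °C), against 1748, 3167, 3125 and 4535 CPM on day 4. The days overlapped through the pif4 hybrid at 27 °C, the 1 pair that was higher on day 7, and the change of −0.53 (SE 0.26) had an edgeR adjusted p of 0.106. Its partner ATCG00950 gave −0.57 (SE 0.25, edgeR adjusted p = 0.0761), while ATCG01210 and ATCG00920 gave 0.15 (SE 0.26) and 0.13 (SE 0.26). With the log2 library total as a covariate, ATCG01210 and ATCG00920 rose with age by 0.52 each, with edgeR adjusted p of 0.0362 and 0.0365. Without the pif4 hybrid at 27 °C on day 7, ATCG01180 and ATCG00950 fell with age, by 0.83 and 0.87, with edgeR adjusted p of 0.000935 and 0.000816. Without the pif4 hybrid at 27 °C on day 4 they also fell, with edgeR adjusted p of 0.0404 and 0.0257.

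ATCG00020, the fifth by count, read 537, 562, 328 and 523 CPM on day 7 (pif4 27 °C, pif4 22 °C, Col 27 °C, Col 22 °C), against 181, 204, 246 and 209.6 CPM on day 4. The days did not overlap, and the locus rose by 1.20 on the log2 scale (SE 0.17, edgeR adjusted p = 0.000189). Its share of the chloroplast counts was 4.98%, 6.20%, 5.09% and 5.44% on day 7, against 2.97%, 1.98%, 2.35% and 1.46% on day 4. ATCG00490 read 372, 329.9, 269.8 and 326 CPM on day 7, against 151, 219, 288 and 313 CPM on day 4. Its days overlapped, because the Col hybrid at 27 °C was lower on day 7 than on day 4, and the change of 0.47 (SE 0.19) had an edgeR adjusted p of 0.0532. Without the Col hybrid at 27 °C on day 4 or on day 7 it passed, with edgeR adjusted p of 0.0112 and 0.00666. It also passed with library totals, without a filter, in DESeq2, with depth as a covariate and with thinned counts, with adjusted p of 0.00182 to 0.046.

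The largest rises with age were in loci of low count. ATCG00450 read 8.12, 9.14, 4.45 and 8.22 CPM on day 7, against 1.81, 1.86, 3.69 and 1.43 CPM on day 4, without overlap, and rose by 1.62 (SE 0.31, edgeR adjusted p = 0.000958). Its counts ran between 2 and 165, and the 2 came from the shallowest library. ATCG00100 read 4.32, 6.54, 2.47 and 3.67 CPM on day 7, against 1.28, 2.44, 1.63 and 2.86 CPM on day 4, and rose by 1.23 (SE 0.26, edgeR adjusted p = 0.00188). Each pair was higher on day 7, although the Col hybrid at 22 °C on day 4 exceeded the Col hybrid at 27 °C on day 7. For ATCG00100 the edgeR adjusted p was 0.0935 with the chloroplast total as library size. It was 0.124 with the 4 largest loci taken out of that total.

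Of the 6 annotated loci, ClpP and the CemA-related locus rose with age. ClpP, a protease subunit, read 17.5, 12.1, 16.4 and 10.2 CPM on day 7, against 14.1, 7.10, 9.99 and 11.4 CPM on day 4. The days overlapped and 3 of 4 pairs were higher on day 7, with a change of 0.50 (SE 0.15, edgeR adjusted p = 0.0163). Its adjusted p was 0.0821 without the pif4 hybrid at 22 °C on day 4 and 0.0582 without the pif4 hybrid at 27 °C on day 7. The call was also lost with counts thinned to the shallowest library (change 0.35, edgeR adjusted p = 0.281). With the chloroplast total as library size the edgeR adjusted p was 0.504. ATCG00530 read 12, 13, 10.8 and 11.5 CPM on day 7, against 9.20, 9.20, 9.56 and 8.59 CPM on day 4, without overlap, and its change was 0.35 (SE 0.13, edgeR adjusted p = 0.0377). That call was lost without either Col hybrid library at 22 °C or any of the 4 pif4 libraries, with adjusted p of 0.0606 to 0.128, and DESeq2 gave 0.0888. With thinned counts the edgeR adjusted p was 0.379, and with the chloroplast total as library size it was 0.549. The ribosomal protein loci gave changes of −0.03 for L20 (SE 0.26), −0.20 for S11 (SE 0.26) and −0.23 for L2 (SE 0.15), none of which passed the test, and ATCG00430 gave 0.05 (SE 0.27).

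**Figure D3:**
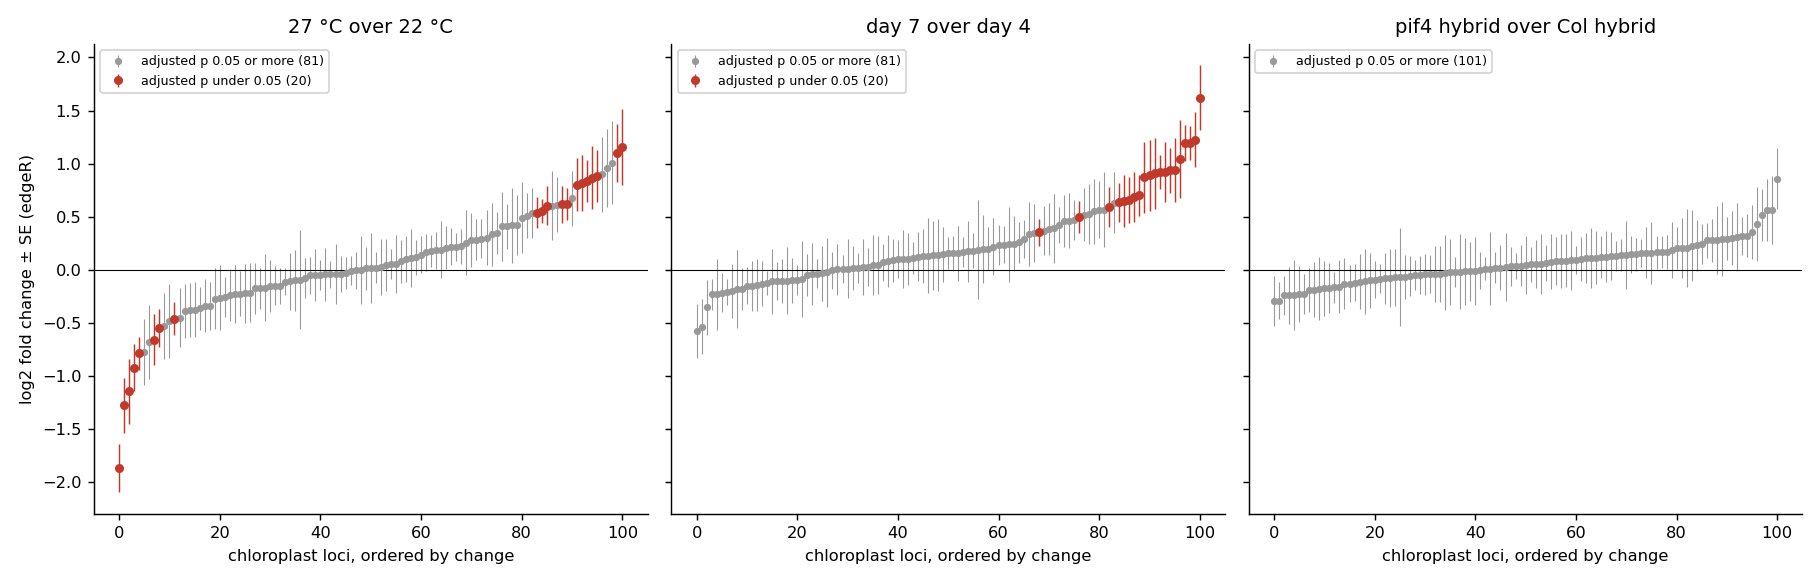
Log2 fold change with its standard error (edgeR) of each of the 101 tested chloroplast loci, ordered by change, for 27 °C over 22 °C (left), day 7 over day 4 (middle) and the pif4 hybrid over the Col hybrid (right); red points passed an adjusted p of 0.05. With temperature 20 loci passed on both sides of 0, with age 20 passed and all lay above 0, and with genotype 0 passed.

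Temperature, 27 °C against 22 °C, did not shift the chloroplast share beyond the spread of the pairs. The share of all 106 loci was 1.10%, 0.659%, 0.717% and 1.06% at 27 °C (pif4 day 7, pif4 day 4, Col day 7, Col day 4), against 0.915%, 0.995%, 0.939% and 1.20% at 22 °C in the same order. The mean log2 ratio was −0.23 (SD 0.37), lower at 27 °C in 3 of 4 pairs and higher in the pif4 hybrid on day 7. The pairs with the lower share at 27 °C were those in which the 27 °C library was the deeper. For the 100 loci outside the 6 largest, the share was 0.0839%, 0.0652%, 0.0761% and 0.0721% at 27 °C, against 0.0788%, 0.0555%, 0.0638% and 0.0663% at 22 °C. It was higher at 27 °C in 4 of 4 pairs, by a mean of 0.17 (SD 0.08), although the groups overlapped.

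The 4 largest loci followed the share as a whole. ATCG01180 read 2486, 1748, 1518 and 3125 CPM at 27 °C, against 2046, 3167, 2260 and 4535 CPM at 22 °C, and its change of −0.37 (SE 0.26) had an edgeR adjusted p of 0.267. The other members of these 4 gave changes of −0.38 to −0.34, with edgeR adjusted p between 0.252 and 0.303. The pif4 hybrid at 27 °C on day 7 decided this result: without it all 4 fell at 27 °C, by 0.67 to 0.75 on the log2 scale, with edgeR adjusted p of 0.00257 to 0.00371. With the log2 library total as a covariate, the 4 changes lay between −0.05 and 0.01. ATCG00020 and ATCG00490 gave changes of −0.15 each (SE 0.17 and 0.18), which did not pass.

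Among all tested members, 12 rose at 27 °C, beside 19.5% of all loci that rose, and 8 fell, beside 19.2% of all loci that fell. The 20 called are 19.8% of the members tested, against 38.7% of all loci in either direction. The median change was 0.02, with a range of −1.86 to 1.16 and 52 of 101 above 0, beside a median of 0.01 for all loci. The members thus moved in both directions with temperature. The number that rose was 3 without the Col hybrid at 22 °C on day 7 and 6 without the pif4 hybrid at 27 °C on day 7. The number that fell was 4 without the Col hybrid at 22 °C on day 7, and 5 without the Col hybrid at 27 °C on day 7, the pif4 hybrid at 27 °C on day 4 or the pif4 hybrid at 22 °C on day 7. For these fits too, the share of all loci called is not given. With the chloroplast total without the 4 largest loci as library size, 4 members rose at 27 °C, beside 8.86% of all loci, and 3 fell, beside 5.71%.

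ATCG00400 had the largest fall at 27 °C. It read 1.41, 0.885, 1.16 and 0.978 CPM at 27 °C (pif4 day 7, pif4 day 4, Col day 7, Col day 4), against 5.04, 3.14, 4.99 and 2.15 CPM at 22 °C. The temperatures did not overlap, and the locus fell by 1.86 on the log2 scale (SE 0.23, edgeR adjusted p = 0.000104). The 2.15 CPM of the Col hybrid at 22 °C on day 4 is 3 counts, so the lack of overlap is uncertain for that library. ATCG01190 read 2.38, 1.86, 1.62 and 2.50 CPM at 27 °C, against 3.99, 4.54, 4.199 and 10 CPM at 22 °C. It also fell without overlap, by 1.28 (SE 0.26, edgeR adjusted p = 0.00221). With the chloroplast total as library size its change was −0.94, with an edgeR adjusted p of 0.163.

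The largest rises were in loci with 0 counts in the shallowest library. ATCG00760 read 1.41, 1.99, 2.08 and 1.09 CPM at 27 °C, against 0.776, 0.698, 1.05 and 0 CPM at 22 °C, and rose by 1.16 (SE 0.36, edgeR adjusted p = 0.0226). ATCG00900 read 3.44, 3.01, 3.32 and 3.15 CPM at 27 °C, against 1.88, 1.63, 1.40 and 0 CPM at 22 °C, and rose by 1.10 (SE 0.27, edgeR adjusted p = 0.00738). In neither locus did the temperatures overlap, but a 0 in the Col hybrid at 22 °C on day 4 allows up to 2.15 CPM, and these fitted changes depend on how a 0 is treated. ATCG00760 no longer passed when any of 4 libraries was left out: its adjusted p was 0.0992 without the Col hybrid at 27 °C on day 7, and 0.0587, 0.0978 and 0.0873 without the pif4 hybrid at 22 °C on day 4, at 27 °C on day 4 and at 22 °C on day 7. With the log2 library total as a covariate its change was 0.82, with an adjusted p of 0.149. ATCG00900 had an adjusted p of 0.0517 without the Col hybrid at 22 °C on day 7.

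Of the annotated loci, ClpP and ribosomal protein L20 rose at 27 °C. ClpP read 17.5, 14.1, 16.4 and 9.99 CPM at 27 °C, against 12.1, 7.10, 10.2 and 11.4 CPM at 22 °C, and rose by 0.62 (SE 0.15, edgeR adjusted p = 0.00668). It was higher at 27 °C in 3 of 4 pairs, the Col hybrid on day 4 being lower, and its adjusted p was 0.0514 without the Col hybrid at 22 °C on day 7. With thinned counts its edgeR adjusted p was 0.0782. With the chloroplast total as library size it was 0.114, and 0.0702 with the 4 largest loci taken out of that total. Ribosomal protein L20 read 2.12, 2.35, 1.91 and 2.17 CPM at 27 °C, against 1.33, 0.931, 1.22 and 1.43 CPM at 22 °C, and rose by 0.82 (SE 0.26, edgeR adjusted p = 0.0269). The temperatures did not overlap, on counts of 2 to 54 per library. DESeq2 gave L20 an adjusted p of 0.0792, and the depth covariate gave 0.0803. The call was lost when any of 5 of the 8 single libraries was left out, with edgeR adjusted p of 0.057 to 0.115. Ribosomal protein S11 read 2.29, 3.23, 1.98 and 1.96 CPM at 27 °C, against 1.496, 1.86, 1.57 and 0.715 CPM at 22 °C. It was higher in 4 of 4 pairs without overlap, with a change of 0.61 (SE 0.26, edgeR adjusted p = 0.0756) that did not pass. The 0.715 CPM of the Col hybrid at 22 °C on day 4 is 1 count, in a library where even 0 counts allow up to 2.15 CPM. That pair and the lack of overlap are thus not resolved. Ribosomal protein L2 read 7.94, 10.2, 7.90 and 10.1 CPM at 27 °C, against 9.14, 8.27, 7.87 and 10.7 CPM at 22 °C, a change of 0.02 (SE 0.15). The reference lists its gene in 2 copies, so how its reads were assigned is uncertain. The CemA-related locus gave −0.04 (SE 0.13) and ATCG00430 gave −0.11 (SE 0.27), and neither passed.

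**Figure D4:**
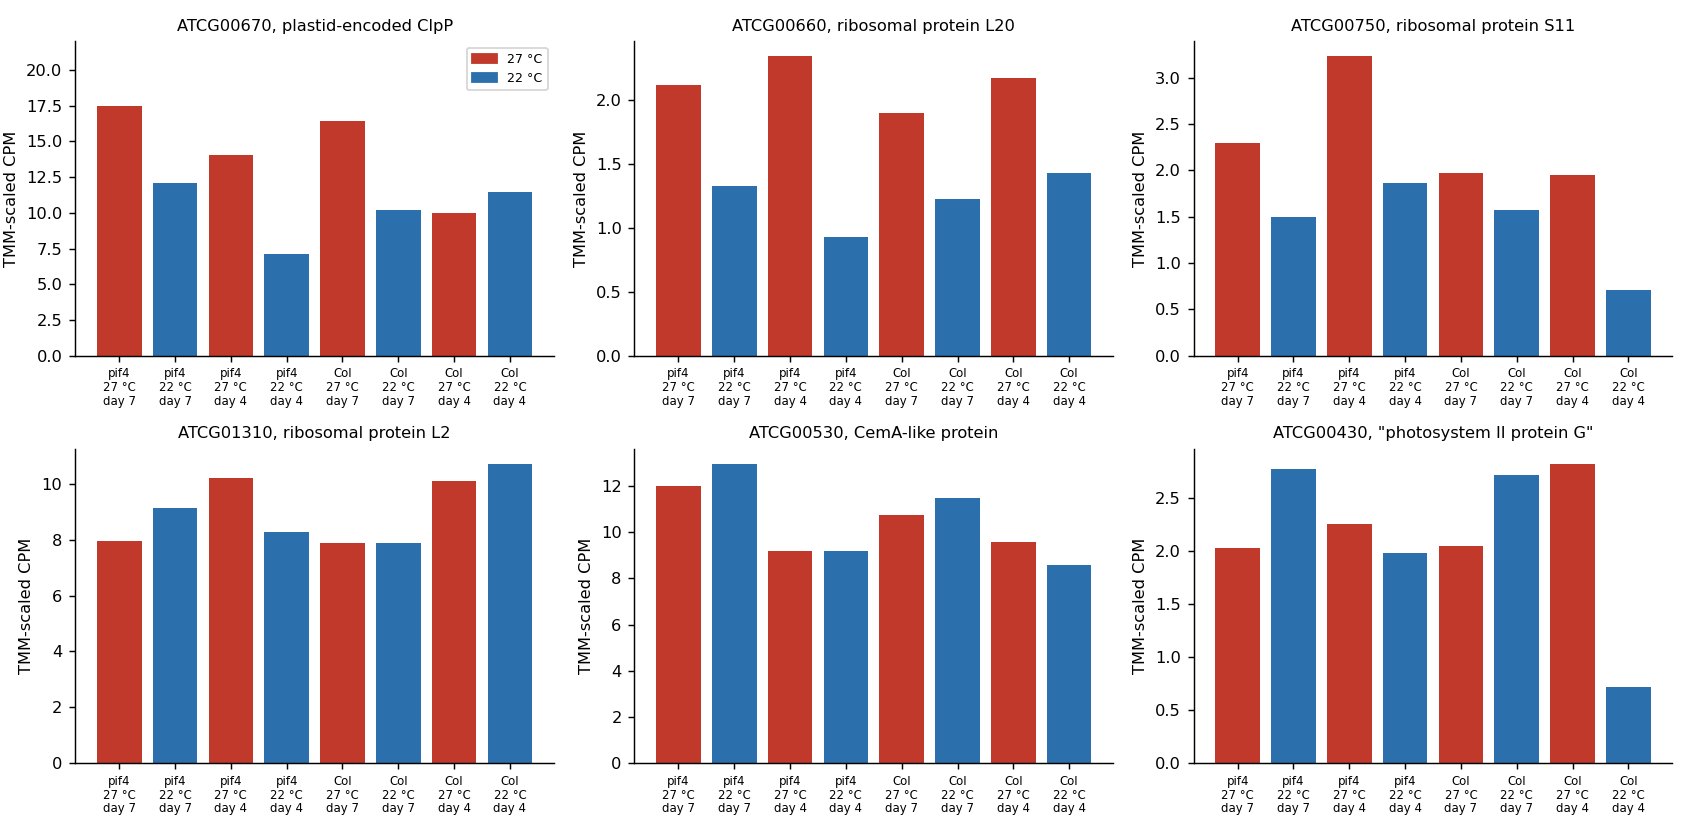
TMM-scaled CPM (linear axes from 0, each panel with its own scale) of the 6 chloroplast loci that the reference text names, in each of the 8 libraries; red bars are 27 °C and blue bars 22 °C, and each bar is 1 library without an error bar. Ribosomal protein L20 lay between 1.91 and 2.35 CPM at 27 °C and between 0.931 and 1.43 CPM at 22 °C, and ribosomal protein L2 overlapped between the temperatures.

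Within the chloroplast total, composition was compared for the 33 members that averaged 100 or more counts per library, as a description without a test. At 27 °C 9 of the 33 held a larger part of the chloroplast counts in 4 of 4 pairs and 0 held a smaller part in 4 of 4. ATCG00120 had the highest mean log2 ratio, 0.91 (SD 0.44), followed by ClpP at 0.87 (SD 0.74), and ATCG01020 the lowest, −0.33 (SD 0.59). With age 9 of the 33 held a larger part on day 7 in 4 of 4 pairs and 2 held a smaller part. ATCG01020 was highest at 1.38 (SD 0.48) and ATCG00020 next at 1.35 (SD 0.52). The 2 that were smaller in every pair were ATCG00950 at −0.42 (SD 0.09) and ATCG01180 at −0.38 (SD 0.07), which are among the 4 largest loci. Such shares sum to a whole, so a smaller part for the largest loci enlarges the parts of the others.

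Genotype, the pif4 hybrid against the Col hybrid, called 0 members, beside 0.00504% of all loci, which is 1 locus. At an unadjusted p under 0.05 it was 1 member, beside 4.01% of all loci, namely ATCG00090, with a change of 0.86 (SE 0.28, edgeR adjusted p = 1.00). ATCG00090 read 7.06, 7.98, 3.63 and 3.26 CPM in the pif4 hybrid (27 °C day 7, 22 °C day 7, 27 °C day 4, 22 °C day 4), against 5.22, 1.75, 3.15 and 2.15 CPM in the Col hybrid. The mean log2 ratio of the chloroplast share between the hybrids was −0.09 (SD 0.54), and 3 of 4 pairs were lower in the pif4 hybrid. In each of the 4 pairs the library with the lower share was the deeper one, and the part of depth was not tested. The median change of the members was 0.05, beside 0.00 for all loci.

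For the other 102 loci, but not for the whole chloroplast share, the hybrids differed in opposite directions on the 2 days. The other 102 loci held 0.176% and 0.169% of all counts in the pif4 hybrid on day 7 (27 °C, 22 °C), against 0.143% and 0.147% in the Col hybrid on day 7. On day 4 they held 0.101% and 0.0965% in the pif4 hybrid, against 0.126% and 0.1102% in the Col hybrid. The share of all 106 loci at 22 °C was lower in the pif4 hybrid on both days, at 0.915% on day 7 and 0.995% on day 4, against 0.939% and 1.20% in the Col hybrid. The share of the other 102 on day 7 was thus 1.74 and 1.75 times that on day 4 in the pif4 hybrid at 27 °C and 22 °C, and 1.13 and 1.33 times in the Col hybrid. In the locus-by-locus test of the genotype-by-age term 0 members passed, beside 0.0908% of all loci, and 31 of 101 members had an unadjusted p under 0.05, which is 30.7% of them, beside 8.5% of all loci at the same threshold. The median of this term was 0.58 for the members, with 88 of 101 above 0, and −0.02 for all loci, of which 47.2% were above 0. The median of the members exceeded that of all loci by 0.498 to 0.689 when each library was left out in turn. Members of 1 library share its counts, so these numbers are not independent observations. Day 7 libraries of the Col hybrid held 25440561 (27 °C) and 11711681 counts (22 °C), against 9128810 and 1664128 on day 4. Those of the pif4 hybrid held 11125696 and 17884174, against 20898400 and 8880735. Depth was thus higher on day 7 in every pair except the pif4 hybrid at 27 °C. The depth covariate and thinned counts were not run for the genotype-by-age term, so the part of depth in it was not tested.

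The smallest p in that term belonged to ATCG00040. It read 17.1 and 25.1 CPM in the pif4 hybrid on day 7 (27 °C, 22 °C) and 8.10 and 11.9 CPM in the pif4 hybrid on day 4, against 12.6 and 20.7 CPM in the Col hybrid on day 7 and 13.1 and 17.2 CPM in the Col hybrid on day 4. The pif4 hybrid was the higher of the hybrids on day 7 and the lower on day 4 at both temperatures, and the term was 1.02 (SE 0.22, edgeR adjusted p = 0.466). ATCG01060 was next, at 1.49 (SE 0.34, edgeR adjusted p = 0.516). The 4 largest loci gave 0.98 to 1.08 in this term, and none passed. Without the pif4 hybrid at 22 °C on day 7, 1 library was left for that hybrid and day, and the 4 gave 1.44 to 1.57. With each library left out in turn, the lowest values of the 4 loci were 0.49 to 0.58. At 27 °C the log2 ratio of ATCG01180 between the hybrids was 0.71 on day 7 and −0.84 on day 4. At 22 °C it was −0.14 on day 7 and −0.52 on day 4. The genotype-by-temperature term called 0 members, beside 0% of all loci, with 2 members at an unadjusted p under 0.05, beside 0.948% of all loci. The age-by-temperature term called 0 members, beside 0.267% of all loci, with 3 at an unadjusted p under 0.05, beside 9.03% of all loci. ATCG00960 had the smallest p there, with a term of 1.64 (SE 0.38, edgeR adjusted p = 0.12).

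Nuclear genes that act on plastid transcription and plastid RNA were read as a list of 29, all of which passed the filter. At 27 °C 16 of the 29 fell and 3 rose, beside 19.2% and 19.5% of all loci, and the median change was −0.34. Markers of green tissue were lower too: RBCS1A fell by 1.00 (SE 0.32, edgeR adjusted p = 0.0268; lower in 4 of 4 pairs), and CAB1 and LHCA1 gave −0.84 (SE 0.35) and −0.68 (SE 0.27), lower in 3 of 4 pairs, without passing. The summed level of the 3 ran between 6088 and 12224 CPM at 27 °C, against 10430 to 32539 CPM at 22 °C. Among 3 root markers IRT1 fell, by 3.39 (SE 0.19), and CASP1 and MYB36 each gave −0.23. The part of these markers in the falls of the list was not tested. SCA3, a phage-type RNA polymerase of plastids, rose by 0.76 (SE 0.15, edgeR adjusted p = 0.00214). It read 22.0, 35.3, 21.7 and 19.4 CPM at 27 °C (pif4 day 7, pif4 day 4, Col day 7, Col day 4), against 12.7, 19.7, 12.9 and 12.2 CPM at 22 °C. AT5G15700, entered in the list as the polymerase RPOTmp, and SIG4, a sigma factor, also rose, by 0.74 (SE 0.17) and 0.53 (SE 0.15). PTAC7, an essential partner of the plastid-encoded polymerase, read 83.2, 37.6, 63.9 and 44.2 CPM at 27 °C, against 140.8, 80.9, 130.5 and 75.8 CPM at 22 °C, and fell by 0.91 (SE 0.11, edgeR adjusted p = 9.82e-05). CRB, a chloroplast RNA-binding protein, fell by 1.06 (SE 0.16), and the sigma factors SIGE and SIGA fell by 0.88 (SE 0.14) and 0.69 (SE 0.11).

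With age 7 of the 29 nuclear genes rose and 7 fell, beside 24.8% and 24% of all loci, with a median change of −0.08. FSD2 and PTAC7, both found with the plastid-encoded polymerase, rose by 0.85 (SE 0.16) and 0.82 (SE 0.11), and GUN1, a pentatricopeptide repeat protein of plastid-to-nucleus signalling, fell by 0.82 (SE 0.12). CSP41A, an RNA-binding protein of the chloroplast, fell by 0.75 (SE 0.13) and the sigma factor SIG2 by 0.65 (SE 0.12). Between the hybrids 0 of the 29 passed. The list was chosen with earlier results of these data known, and its counts are a description.

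**Figure D5:**
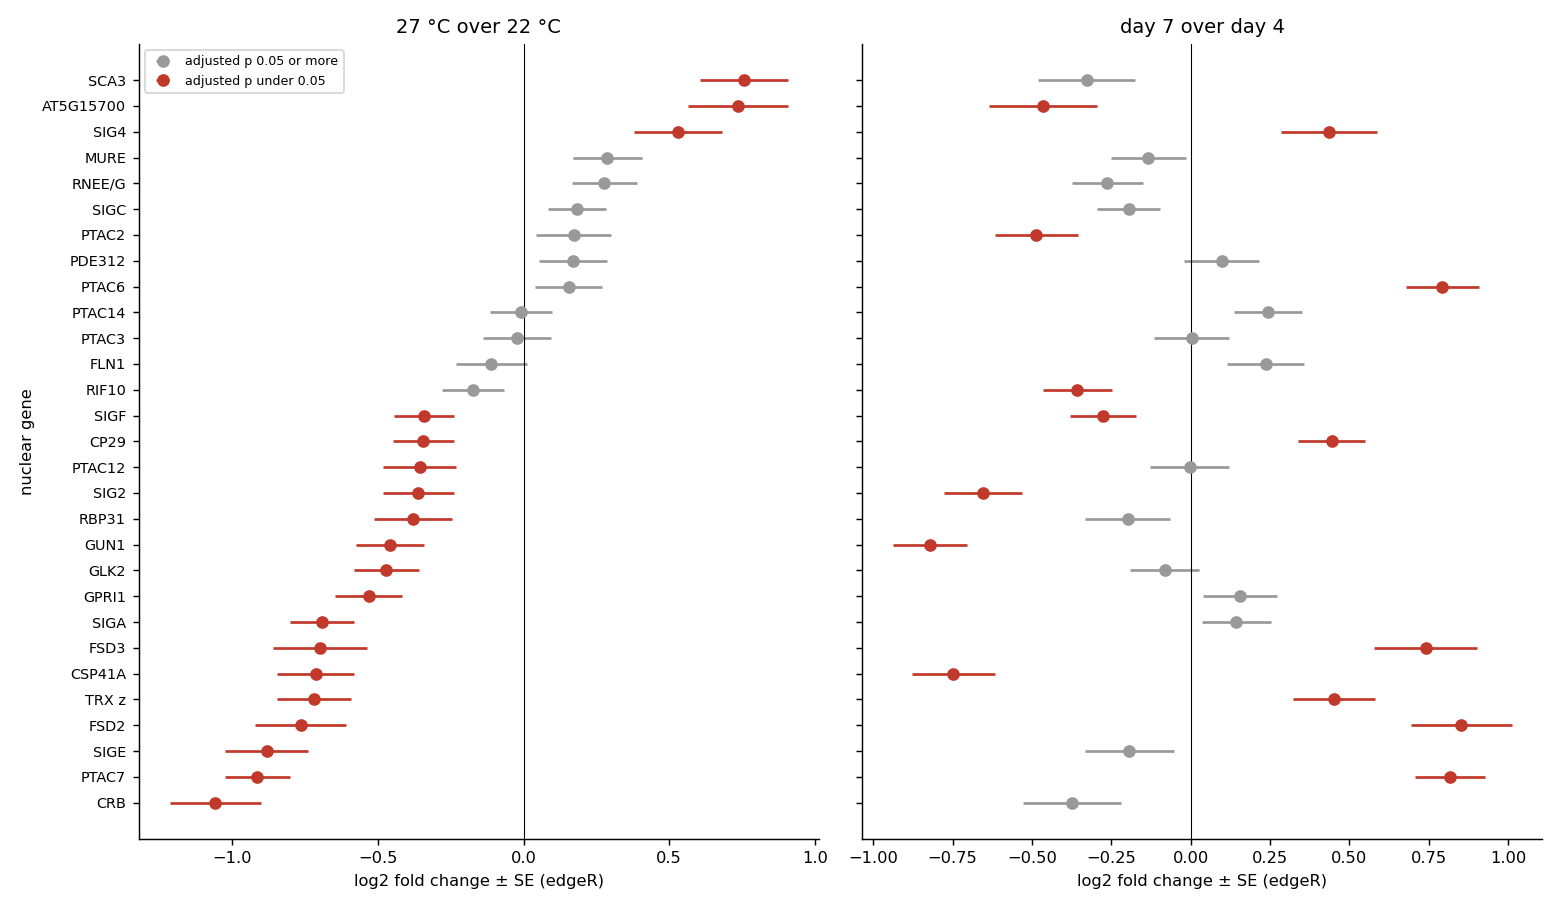
Log2 fold change with its standard error (edgeR) of the 29 nuclear genes of plastid transcription and RNA metabolism, for 27 °C over 22 °C (left) and day 7 over day 4 (right), both ordered by the temperature change; red points passed an adjusted p of 0.05. SCA3, AT5G15700 and SIG4 rose at 27 °C and 16 genes fell, while with age 7 rose and 7 fell.

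The mitochondrial loci, 146 with an ID that starts with ATMG, give the other organelle for comparison. They held 0.0723%, 0.0490%, 0.0420% and 0.0530% of all counts in the pif4 hybrid (27 °C day 7, 22 °C day 7, 27 °C day 4, 22 °C day 4), and 0.0618%, 0.04995%, 0.0690% and 0.0554% in the Col hybrid. Their mean log2 ratio was 0.21 between 27 °C and 22 °C (SD 0.38), higher in 3 of 4 pairs, where the chloroplast share was lower in 3 of 4. With age the mean was 0.09 (SD 0.46). Their share was lower on day 7 in 3 of 4 pairs and the days overlapped, as for the share of all 106 chloroplast loci. A single locus, ATMG00020, held 43.9% to 56.4% of the mitochondrial counts.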

How the data were processed

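RNA sequencing of 8 pools of seedlings, 1 per condition, was analysed from the raw read counts per locus that the authors deposited, whole numbers that were not normalised. Per the submitters' processing notes the tools were HTSeq 0.6.1p1, HISAT2, StringTie 1.3.5, Picard and FastQC 0.11.5 and the build was TAIR10, with no role or setting; the strand setting and the treatment of reads that map to 2 places are not given in the sources used here. Per the labels' protocols, RNA was prepared with a stranded and an unstranded mRNA kit, and which library had which is not said. Such kits select polyadenylated RNA, while in plastids a poly(A) tail marks RNA for breakdown, so chloroplast RNA may be captured in part, and counts describe the captured part; the effect was not tested.

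Loci were kept when they reached 0.876 CPM (10 counts at the median library total) in 4 or more libraries, which left 19829. Counts were scaled by TMM and tested with edgeR 4.0.16 (quasi-likelihood, R 4.3.3) in a model of genotype, temperature and age with 4 residual degrees of freedom, and each interaction in a model with 3. p-values were adjusted by Benjamini-Hochberg over all loci tested, and each SE was taken as |log2 change|/√F. They measure only the spread between these 8 libraries. CPM are TMM-scaled. Shares were compared as log2 ratios within 4 matched pairs, as a description with no test. A planned test by sign flips within the pairs, and a planned correlation of the share with library depth, are not reported. Library totals set the precision: they ran between 1664128 and 25440561 counts. The edgeR step was tested on simulated data.

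The members and lists were chosen with earlier results of these data known. Loci named are the 10 of largest summed count, the 6 with a product in the TAIR10.1 annotation and, per test, at most 2 that rose and 2 that fell with the largest changes, or the smallest p where none passed. For the make-up of the chloroplast total, the 2 highest and at most 2 lowest per factor were named. The planned rule named more loci per test and for the make-up, and functional groups of loci. The functional groups needed gene names for the IDs and were cut for that reason. Alternatives that needed names were replaced by leaving out the 4 or the 6 largest loci, chosen after seeing the data. Alternatives were another scaling (DESeq2 1.42.0 size factors, library totals, chloroplast totals), no filter, the DESeq2 test, depth as a covariate, thinned counts and each library left out.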

Additional observations from a re-analysis of the deposited data

Results flagged for a closer look

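In 3 measures the effect of a factor ran one way on day 7 and the other way on day 4 in every pair of libraries. None of these differences was tested, and each day has 2 pairs. They come from a screen of the share measures and the pair ratio, over each factor split by each other factor. Only measures with such a pattern are listed. The share of the other 102 chloroplast loci in all counts gave a mean log2 ratio between the pif4 and the Col hybrid of 0.254 on day 7 and −0.255 on day 4, a difference of 0.509. The share of the 100 loci outside the 6 largest gave 0.222 on day 7 and −0.201 on day 4, a difference of 0.423. The ratio of ATCG01210 plus ATCG00920 to ATCG01180 plus ATCG00950 gave a mean log2 ratio between 27 °C and 22 °C of −0.129 on day 7 and 0.0478 on day 4, a difference of −0.177. Nearly all of it came from the Col hybrid, with −0.251 on day 7 and 0.0865 on day 4, since the pif4 hybrid gave −0.0072 and 0.0092. The first and second measures share 100 of their loci and are not separate observations.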

How the results depend on the processing

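No paired analysis was possible because the labels carry no replicate numbers and each condition has 1 library; the matched pairs of libraries in the text differ in 1 factor by design and are not replicates. Over the comparisons as a whole, 69 values under other settings kept their size and 21 moved. Those kept include counts of 0 members, for genotype and the interaction terms, that stayed at 0. A share was counted as kept when its mean log2 ratio moved by less than the SD of the pairs. The tally is thus no measure of how stable the counts for temperature and age are. Members called higher and lower with temperature (12 and 8) were 20 and 5 with library totals, 2 and 1 with the chloroplast total as library size, 1 and 2 after thinning to the total of the shallowest library, and 4 and 3 with the chloroplast total without the 4 largest loci; with log2 depth as a covariate 4 were lower. Members called higher with age (20) were 3 with the chloroplast total, 5 after thinning and 3 without the 4 largest loci in that total; those lower with age (0) were 2 with library totals, 1 without a filter, 1 after thinning and 10 without the 4 largest loci. The age-by-temperature term called 1 member higher with library totals and 1 without a filter. The mean log2 ratio of the chloroplast share was 0.17 for temperature without the 6 largest loci and 0.55 for age without the 4 largest, and that of the 4 loci in the chloroplast total was −0.031 for age without the loci ranked 5 and 6. The signs of ATCG00530 and ATCG00670 with age turned to −0.14 and −0.047 when the total without the 4 largest loci was the library size, a scaling that moved the median of all loci with age to −0.48, so relative to all loci neither turned. Leaving out 1 library at a time gave 3 to 17 members higher and 4 to 12 lower with temperature, and 7 to 28 higher and 0 to 2 lower with age. The share of all loci called in those fits is not given beside these counts. Library totals moved the median of all loci by 0.15 with temperature. Thinning leaves fewer members to test. The cause of the other shifts was not tested. Loci under about 10 counts a library are at the limit of this depth. The chloroplast share without the loci of 2 named photosynthesis genes, and over protein-coding loci alone, was not run, since the IDs could not be paired with names.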
